A study of Mus musculus with 6 samples.

Results

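The genes described here are 10 that encode parts of the contractile and excitable apparatus of striated muscle, the tissue of skeletal muscle and heart, measured in cultured mouse embryonic fibroblasts. They are the troponin genes Tnnt1, Tnnt2, Tnnt3, Tnnc1 and Tnni1, the cardiac actin gene Actc1, the myosin light chain genes Myl1 and Myl4, the acetylcholine receptor gene Chrna1 and the desmin gene Des. They were chosen by name, with earlier results of these data known, as the probesets annotated to 1 of these symbols. Each had 1 probeset, so the set is 10 of 19288 genes named on the array. Expression was measured on Affymetrix arrays in 2 groups of 3. Control cells carried the hairpin construct shSCR. The other cells carried shARF, which by its name is directed at ARF, a tumour suppressor encoded by the gene Cdkn2a. The series title calls the cells of both groups dp53R, and all 6 sample titles carry the word Ras; the labels do not say further what these stand for, at what age the embryos were taken or whether the lines are clones. Replicates are named biological, with no word on whether each is a culture or an animal of its own, so the p-values speak only for the spread among these arrays, and that spread may be technical.

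In striated muscle, myosin heads on thick filaments pull on actin in thin filaments. Troponin sits on the thin filament together with tropomyosin and makes this pull depend on calcium: troponin C binds the calcium, troponin I inhibits, and troponin T ties the complex to tropomyosin. Separate genes encode the slow skeletal, cardiac and fast skeletal forms of troponin I and of troponin T. In differentiating skeletal muscle, such genes are switched on by the MyoD family of transcription factors, which bind E-boxes with a partner. MEF2 and serum response factor (SRF), which binds CArG boxes, also switch on genes of this kind. Fibroblasts ordinarily lack the sarcomere that these proteins build.

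The values are signals normalized by RMA (robust multi-array average) on a linear scale, with a median over all probesets of 42.0 to 42.9 on the 6 arrays. The transcript of the targeted locus was lower in shARF: Cdkn2a measured 530 ± 12.2 (SD, n = 3) in shSCR and 285 ± 30.7 in shARF, and its groups did not overlap. A probeset annotated to Cdkn2a may also read the transcript of p16Ink4a, which comes from the same locus. All 14 fibroblast markers lay above the detection level on all 6 arrays. 

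The members Tnnt2 and Chrna1 were higher in shARF, and they carry the result. The bases upstream of their RefSeq starts are shown because E-boxes, to which the MyoD family binds in skeletal muscle, are known features of such promoters. The bases of Actc1 are shown as those of a member that did not pass. Actc1 does not stand for all such members, since the windows of Tnni1, which did not pass either, held 4 and 2 E-boxes. For Tnnt2, the window of another start, not shown here, held 1 E-box. Each line gives the 230 bases that end 20 bases before a start, 5′ to 3′ in the direction of the gene, from the RefSeq promoter table of build GRCm38.p6. Capitals mark the E-box, CANNTG, and the CArG box. Both patterns equal their own reverse complement in form, so both strands were searched, and in these windows no E-box overlapped a CArG box.
Tnnt2, chr1:135836084-135836313, plus strand: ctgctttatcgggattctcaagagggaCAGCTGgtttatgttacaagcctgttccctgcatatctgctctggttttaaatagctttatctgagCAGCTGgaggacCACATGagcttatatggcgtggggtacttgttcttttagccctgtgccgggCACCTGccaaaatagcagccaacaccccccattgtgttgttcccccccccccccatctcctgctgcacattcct
Chrna1, chr2:73580359-73580588, minus strand: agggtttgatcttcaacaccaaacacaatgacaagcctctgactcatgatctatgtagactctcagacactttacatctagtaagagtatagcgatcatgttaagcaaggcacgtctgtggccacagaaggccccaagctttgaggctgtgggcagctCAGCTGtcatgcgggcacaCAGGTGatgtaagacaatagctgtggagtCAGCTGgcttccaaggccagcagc
Actc1, chr2:114052896-114053125, minus strand: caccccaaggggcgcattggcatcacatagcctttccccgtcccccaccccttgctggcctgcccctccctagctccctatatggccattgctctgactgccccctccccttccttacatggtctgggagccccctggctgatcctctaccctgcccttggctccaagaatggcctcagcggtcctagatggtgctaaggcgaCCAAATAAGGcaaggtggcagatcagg

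The Tnnt2 window held 4 E-boxes, the first bases of which lay 223, 157, 145 and 94 bases before the start. The Chrna1 window held 3, at 92, 73 and 44 bases. The Actc1 window held no E-box and 1 CArG box, CCAAATAAGG, at 47 bases. Of 32851 promoter windows of this length in the table, 63.5% held at least 1 E-box, 10.4% held 3 or more, 3.02% held 4 or more, and 1.41% held a CArG box. The table had windows for 9 of the 10 members, all but Tnnt3, and 11 windows in all, since Tnni1 and Tnnt2 each had 2 starts. The other Tnnt2 window held 1 E-box. Among the remaining members, Tnni1 held 4 and 2 in its windows, Des and Tnnc1 held 2 each, Myl1 and Tnnt1 held 1 each and Myl4 held none, and none of these held a CArG box. E-boxes were thus present in front of members that passed the test and of members that did not. A match of letters describes the window and is not a binding site.

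The members lay low in the range of the arrays, and 1 of them was not detected. A probeset counted as detected on an array if its signal exceeded the 25th percentile of that array, 14.1 to 14.9. Myl1, the fast skeletal essential light chain, lay below that level on all 6 arrays, between 11.1 and 13.6, so it was not tested and has no fold. The other 9 lay above it on all 6, so no member entered the test through 1 group alone. As a second yardstick, 898 probesets of olfactory and vomeronasal receptor genes, which are not usually transcribed in fibroblasts, had a 95th percentile of 19.1 to 20.4. The same 9 members exceeded it on all 6 arrays, Des by the smallest margin, with 19.9 on shSCR replicate 1 against 19.7.

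Against a stricter yardstick fewer members stood clear. The 99th percentile of the receptor probesets, a level chosen after the values were seen, was 32.5 to 37.0. Tnnt2, Tnnt3, Tnnc1 and Myl4 exceeded it on all 6 arrays, Chrna1 on 5 and Actc1 on 4. Tnni1 exceeded it on 1 array, and Tnnt1, Des and Myl1 on 0, so these 4 lay near background. Only Tnnt2, Tnnt3 and Tnnc1 exceeded the array median on all 6 arrays. Chrna1 and Myl4 exceeded it on 3 arrays each, the 3 shARF arrays in both cases.

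**Figure D1:**
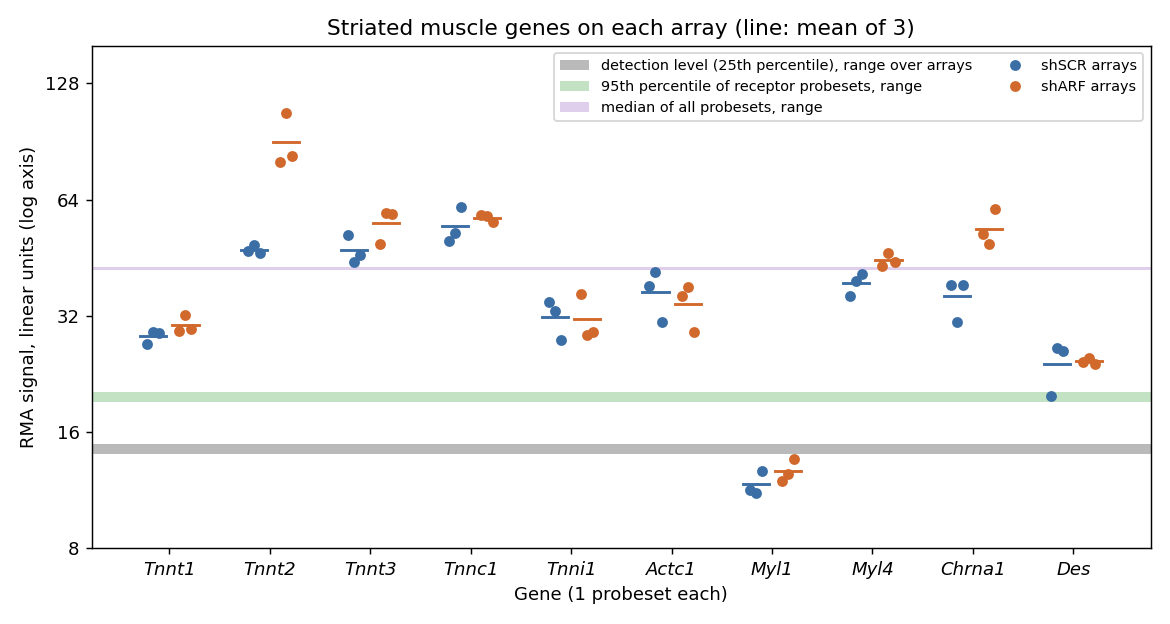
RMA signal (linear units on a log axis) of the 10 striated muscle genes on each of the 3 shSCR and 3 shARF arrays, 1 point an array, with a line at each group's mean. The bands give the range over the 6 arrays of the 25th percentile of all probesets, the 95th percentile of the receptor probesets and the median of all probesets; Myl1 lies under all of them, and the shARF points of Tnnt2, 80.2 to 107, lie clear of its shSCR points, 46.6 to 48.8.

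Of the 9 tested members, 2 rose in shARF, none fell and 7 did not pass (limma, adjusted p under 0.05). Over all 15145 tested genes 4.01% passed, 1.62% as higher and 2.38% as lower. Log2 differences ran from -0.10 for Actc1 to 0.91 for Tnnt2. Of the 9, 7 were above 0, beside 46.8% of all tested genes. Their median was 0.10, beside -0.01 over all tested genes. At an unadjusted p under 0.05, 4 members were higher and none lower, beside 22.2% of all tested genes, 8.76% as higher and 13.4% as lower. The groups did not overlap for 4 members, Tnnt1, Tnnt2, Myl4 and Chrna1, each higher in shARF; over all tested genes they did not overlap for 28.6%, with 12% higher and 16.6% lower. The members were chosen with earlier results of these data known, so these counts and the median describe the set and test nothing about it. In RNA of whole cultures, more cells with a transcript and more of it per cell cannot be told apart.

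**Figure D2:**
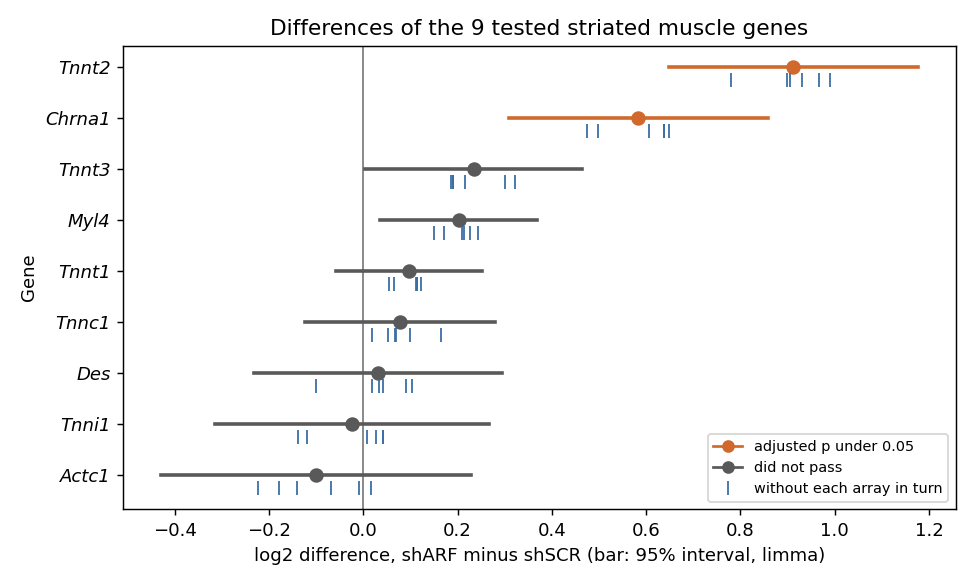
Difference in log2 signal, shARF minus shSCR, for the 9 tested members, with the 95% interval from limma as a bar and the value without each array in turn as ticks. Tnnt2 (0.91) and Chrna1 (0.58) passed the test; the ticks of Actc1, Tnni1 and Des fall on both sides of 0.

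Tnnt2, which encodes the cardiac form of troponin T and is also made in embryonic skeletal muscle, showed the largest difference among the members. In the order of the replicate numbers, its signal was 47.1, 48.8 and 46.6 in shSCR and 80.2, 107 and 82.9 in shARF, and the values of the other genes follow the same order. Every shARF array lay above every shSCR array, and shARF replicate 2 was the highest. The mean was 47.5 ± 1.12 (SD, n = 3) in shSCR and 90.1 ± 14.9 in shARF. On the log2 scale it rose by 0.91 with an SE of 0.112, which is 1.88-fold (limma, adjusted p = 0.00963). Of the 246 genes that rose, 54 rose by more. The call was lost without shSCR replicate 3 (limma, adjusted p = 0.0517) and held without each other array, with differences of 0.78 to 0.99.

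The other troponin T genes differed less and did not pass. Tnnt1, the slow skeletal form, gave 27.1, 29.1 and 29.0 in shSCR and 29.3, 32.2 and 29.6 in shARF. The groups did not overlap, but their nearest arrays stood at 29.1 and 29.3, and the difference was 0.10 (95% interval -0.06 to 0.25; limma, adjusted p = 0.449). Tnnt3, the fast skeletal form, gave 51.7, 44.1 and 46.0 in shSCR and 49.1, 59.0 and 58.8 in shARF. Its groups overlapped through shSCR replicate 1 and shARF replicate 1, and the difference was 0.23 (95% interval 0.00 to 0.46; limma, adjusted p = 0.235). The intervals of both lie below that of Tnnt2, 0.65 to 1.18, and the differences between these genes were not tested.

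Troponin C and troponin I showed no call. Tnnc1, the calcium-binding subunit of slow skeletal and cardiac muscle, measured 50.0, 52.5 and 61.4 in shSCR and 58.4, 58.2 and 55.9 in shARF. The shARF arrays fell within the shSCR range, and the difference was 0.08 (95% interval -0.12 to 0.28; limma, adjusted p = 0.646). Tnni1, the slow skeletal inhibitory subunit, measured 34.6, 33.0 and 27.7 in shSCR and 36.5, 28.5 and 29.0 in shARF. Its groups overlapped, with a difference of -0.02 (95% interval -0.31 to 0.27; limma, adjusted p = 0.937). In the RefSeq gene order of GRCm38.p6, Tnni1 and Tnnt2 lie on chromosome 1 with a single protein-coding gene, Lad1, between them, so the gene that rose and a gene that did not pass are near neighbours. Tnnt1 lies beside Tnni3, the cardiac inhibitory subunit gene, whose difference of 0.06 ± 0.0846 (SE) did not pass either (limma, adjusted p = 0.725).

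Neither the cardiac actin gene nor the myosin light chain genes passed. Actc1, whose product forms thin filaments in the heart and in embryonic skeletal muscle, gave 38.3, 41.6 and 30.9 in shSCR and 36.1, 38.1 and 29.0 in shARF. In both groups replicate 3 was the lowest, and the difference was -0.10 (95% interval -0.43 to 0.23; limma, adjusted p = 0.723). Myl4, the light chain of atrial and embryonic muscle, gave 36.1, 39.5 and 41.0 in shSCR and 43.2, 46.6 and 44.2 in shARF. All shARF arrays lay above all shSCR arrays by a narrow margin. The mean went from 38.9 ± 2.55 (SD, n = 3) to 44.6 ± 1.75, a difference of 0.20 ± 0.0711 (SE) that did not pass (limma, adjusted p = 0.172). Myl1, under the detection level, gave 11.3, 11.1 and 12.6 in shSCR and 12.0, 12.5 and 13.6 in shARF.

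Chrna1 encodes the subunit of the muscle acetylcholine receptor that binds the transmitter at the junction with the nerve. Its signal was 38.5, 30.8 and 38.5 on the shSCR arrays and 52.0, 49.0 and 60.4 on the shARF arrays. The groups were separate, with shARF replicate 3 the highest and shARF replicate 2 the lowest of its group, where Tnnt2 had its highest value. The mean was 36.0 ± 4.48 (SD, n = 3) in shSCR and 53.8 ± 5.91 in shARF. On the log2 scale it rose by 0.58 with an SE of 0.117 (limma, adjusted p = 0.0442). Without any single array the call was lost (limma, adjusted p = 0.0672 to 0.116, differences of 0.48 to 0.65) and when dim probesets were also tested (limma, adjusted p = 0.0658).

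The other receptor and junction genes did not pass. Of 10 tested genes of the acetylcholine receptor and neuromuscular junction, Chrna1 was 1 and the other 9 did not pass, with differences over the list from -0.19 to 0.58. The subunit genes gave 0.19 for Chrnd, 0.09 for Chrng, -0.04 for Chrne and -0.14 for Chrnb1 on the log2 scale. Chrnd and Chrng encode subunits of the same pentamer, Chrng that of the fetal form. Dok7 and Rapsn, which cluster the receptor at the junction, differed by 0.23 and 0.16.

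Des encodes desmin, the intermediate filament that links the Z discs of muscle fibres. It gave 19.9, 26.4 and 25.9 in shSCR and 24.3, 24.8 and 24.0 in shARF. The shARF arrays lay inside the shSCR range, and the difference was 0.03 (95% interval -0.23 to 0.29; limma, adjusted p = 0.905).

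No other tested gene of the striated muscle lists was called higher. Over 7 lists of striated muscle genes and their regulators, with the members left out, 138 were on the array and 119 were tested. None rose, 11 fell and 108 did not pass, which is 9.24% called, all of them lower. Over all tested genes 4.01% were called, 2.38% as lower. Of the 11 falls, 4 were of regulators, namely Srf, Id1, Id2 and Id3, and not of genes for parts of muscle. At an unadjusted p under 0.05, 5 were higher and 26 lower, which is to be read against the same 8.76% and 13.4% of all tested genes. Of the 119 differences 52 were positive, and the median was -0.03. Over all tested genes 46.8% were positive, and the median was -0.01. Of the 119, 17 lay above the detection level on fewer than 6 arrays, and another 19 genes on the array were not tested, among them the giant sarcomere gene Neb and the embryonic myosin gene Myh3. Only the falls of Id1 and Id2, both among these regulators, held without any 1 array. Those of Tpm2, Jph2 and Srl were lost without each of the 6 in turn. The count of 11 was 2, 6 and 3 without shSCR replicates 1, 2 and 3 and 6, 7 and 5 without shARF replicates 1, 2 and 3.

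Acta1 and Tpm2, thin filament genes outside the members, fell. Acta1, the skeletal muscle actin gene, gave 287, 307 and 279.7 in shSCR and 216, 215 and 217 in shARF. The groups were far apart for their spread, and the difference was -0.43 on the log2 scale with an SE of 0.0607 (limma, adjusted p = 0.0145), opposite in sign to Tnnt2. Tpm2, a tropomyosin gene, fell from 2784 ± 58.4 (SD, n = 3) to 2225 ± 102 (limma, adjusted p = 0.0375). Acta1 lost its call without replicate 1 or 3 of either group (limma, adjusted p up to 0.0563), and Tpm2 without each array (up to 0.131) and when dim probesets were tested (0.0662). Actins differ little in sequence between genes, and so do tropomyosins, so probes of Acta1, Actc1 and Tpm2 may read relatives, and their single values are uncertain. The troponin genes Tnnc2 and Tnni2, of fast skeletal muscle, differed by 0.03 and 0.12 and did not pass.

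Among thick filament genes 1 of 20 tested fell, beside 2.38% of all tested genes called lower. Myom1, whose product crosslinks myosin at the M band, gave 29.0, 27.6 and 29.6 in shSCR and 18.3, 21.3 and 18.4 in shARF, a difference of -0.58 with an SE of 0.0776 (limma, adjusted p = 0.0124). The call was lost without shSCR replicate 1 or 3 (limma, adjusted p up to 0.0642). These values lie under the 99th percentile of the receptor probesets. The heavy chain genes Myh1, Myh2, Myh7 and Myh8 differed by -0.23, -0.24, 0.01 and -0.04 and did not pass. Titin (Ttn) lay above the detection level on the 3 shARF arrays alone, and so entered the test through the group where it was higher, at 13.5 ± 0.439 (SD, n = 3) in shSCR and 14.8 in shARF.

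Fhl1 and Dysf fell among 27 tested genes of the Z disc, intermediate filaments and membrane links, and the other 25, Des among them, did not pass. Over all tested genes 2.38% were called lower, and 13.4% were lower at an unadjusted p under 0.05 (limma). Fhl1, which encodes a LIM protein, fell from 1305 ± 48.6 (SD, n = 3) to 837 ± 90.7 (limma, adjusted p = 0.0124). Dysf, the gene of the membrane repair protein dysferlin, fell from 108 ± 9.81 to 77.8 ± 2.13 (limma, adjusted p = 0.0266). Fhl1 lost its call without shSCR replicate 1 or 3 (limma, adjusted p up to 0.0634), and Dysf without each array but shSCR replicate 2 (up to 0.0903). Of 15 tested genes of excitation and calcium handling, Jph2, which joins the cell membrane to calcium stores, fell from 133 ± 10.4 to 94.6 ± 7.63 (limma, adjusted p = 0.0307), and Srl, the gene of the calcium store protein sarcalumenin, fell from 41.4 ± 2.86 to 30.9 ± 2.21 (limma, adjusted p = 0.0393); both lost the call without each array (up to 0.104 and 0.117), and Srl also when dim probesets were tested (0.0637). With the mean over its 2 probesets, Jph2 was lower by a log2 difference of -0.29 that missed the threshold (limma, adjusted p = 0.0748). Of 9 tested metabolic genes of muscle none passed limma's test, with 2 lower and none higher at an unadjusted p under 0.05 and Ckm, the muscle creatine kinase gene, at 0.18 ± 0.155 (SE). SAM called 13 of the 119 genes lower and none higher.

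**Figure D3:**
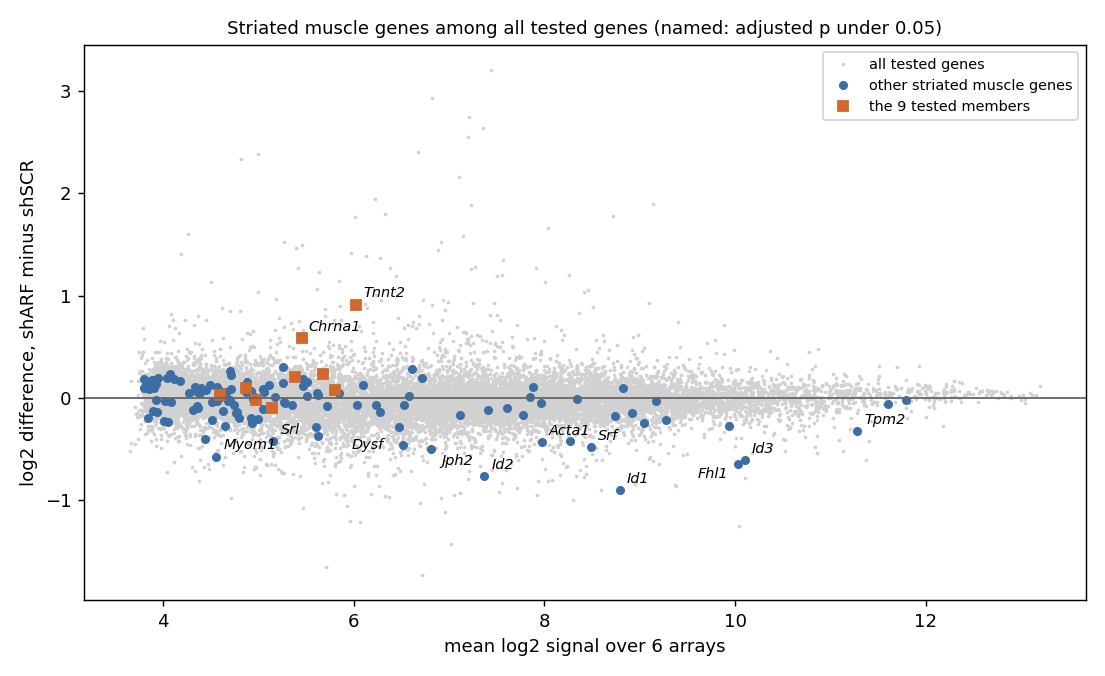
Difference in log2 signal (shARF minus shSCR) against mean log2 signal over the 6 arrays, for all 15145 tested genes (grey), 119 other striated muscle genes (blue) and the 9 tested members (orange squares); names mark adjusted p under 0.05. The 2 named members lie above 0 and the 11 other named genes below it.

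The regulators that define skeletal muscle did not pass or were not detected. Myod1, the founding member of the MyoD family, gave 31.7, 30.3 and 29.6 in shSCR and 32.9, 32.5 and 27.4 in shARF. The groups overlapped, with a difference of 0.01 (95% interval -0.19 to 0.21; limma, adjusted p = 0.945). Myog, which drives terminal differentiation, was above the detection level on 5 arrays, at 16.1 ± 1.19 (SD, n = 3) and 14.9 ± 3.27, and Myf5 lay below it on all 6 arrays. Pax7, a factor of muscle stem cells, gave 23.9 ± 2.39 and 28.5 ± 0.603, a difference of 0.26 ± 0.0816 (SE) that did not pass (limma, adjusted p = 0.139). Mef2c differed by -0.29 ± 0.104 and the SRF coactivator gene Myocd by -0.25 ± 0.188, and neither passed (limma, adjusted p = 0.179 and 0.491). Regulators of heart muscle on the lists did not pass either. Gata4 gave 34.6 ± 1.45 (SD, n = 3) in shSCR and 42.7 ± 4.23 in shARF, and its groups did not overlap. Its difference was 0.30 ± 0.0859 (SE; limma, adjusted p = 0.114). Nkx2-5, Tbx5 and Hand2 differed by -0.07, -0.08 and -0.07.

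Srf and the inhibitors of the MyoD family fell. Srf, the gene of serum response factor, gave 449, 427 and 400.5 in shSCR and 321, 292 and 300.1 in shARF, and every shARF array lay below every shSCR array. The difference was -0.48 with an SE of 0.0705 (limma, adjusted p = 0.0161). The call was lost without shSCR replicate 1 or 2 or shARF replicate 2 or 3 (limma, adjusted p up to 0.0648). Id1, Id2 and Id3 encode proteins that bind the partners of MyoD and keep them from DNA; they fell by 0.90, 0.76 and 0.61 on the log2 scale (limma, adjusted p = 0.00154, 0.0114 and 0.0144). Id3 lost its call without any shSCR array (limma, adjusted p up to 0.0607).

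Most markers of smooth muscle, a cell type with its own contractile genes, went the other way from Tnnt2 and Chrna1. Of 10 tested, 5 fell and none rose, beside 2.38% of all tested genes called lower. Differences were negative for 8 and positive for 2, with a median of -0.39, where 46.8% of all tested genes were positive. Myh11, Smtn, Mylk, Lmod1 and Itga8 did not pass. The summed signal of the 10 was 13560 to 14127 in shSCR and 9573 to 10541 in shARF. Cnn1, the gene of calponin, gave 1744, 1499 and 1641 in shSCR and 668, 711 and 668 in shARF, a difference of -1.25 with an SE of 0.0742 (limma, adjusted p = 0.00121). Myl9, Actg2 and Tagln fell by 0.60, 0.59 and 0.41. Acta2 also fell, with a difference of -0.28 near the threshold (limma, adjusted p = 0.0491). Actg2 and Acta2 are actin genes, so their probes, like those of Acta1, may read relatives, and these falls may not be separate. The count of 5 was 2, 3 and 2 without shSCR replicates 1, 2 and 3 and 3, 4 and 3 without shARF replicates 1, 2 and 3.

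**Figure D4:**
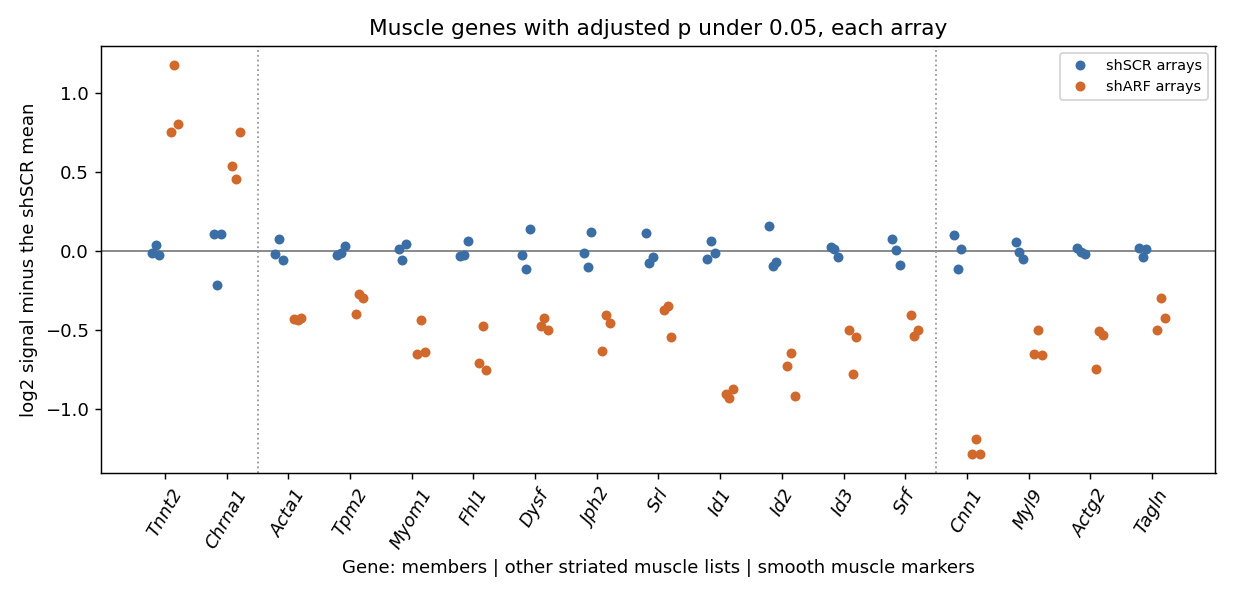
Log2 signal minus the shSCR mean on each array for the 2 members that rose, the 11 other genes of the striated muscle lists that fell, regulators among them, and 4 smooth muscle markers (Cnn1, Myl9, Actg2 and Tagln), with dotted lines between the 3 sets. The shARF points lie above all shSCR points for Tnnt2 and Chrna1 and below them for the others.

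Markers of whole cell types moved as follows beside the 2 rises. Their counts are to be read against 1.62% of all tested genes called higher and 2.38% called lower. At an unadjusted p under 0.05 (limma) these shares were 8.76% and 13.4%. Of 10 tested skeletal muscle markers 1 fell (Acta1) and none rose, and the summed signal of the 12 on the array was 546 to 562 in shSCR and 477 to 494 in shARF. Without Acta1, the other 11 summed to 255 to 267 on control arrays and 262 to 279 on shARF arrays, and Myh3 was not detected on any of the 6. Of 7 tested cardiac markers none passed limma's test, with 1 lower and none higher at an unadjusted p under 0.05, and the sum was 338 to 397 in shSCR and 310.4 to 341 in shARF. Without Nppb, a natriuretic peptide gene and the 1 that was lower, the sum was 217 to 221 and 209 to 217. Of 6 tested neural markers 1 rose, Nefl (1.26 ± 0.135, SE), and the sum was 708 to 751 and 879.9 to 967, or 601 to 658 and 691 to 716 without Nefl. At an unadjusted p under 0.05, 3 were higher and 1 lower. Of 5 tested epithelial markers 1 rose, Krt18 (0.93 ± 0.176), and the sum was 231 to 263 and 340.3 to 475; at that threshold 3 were higher and none lower. Of 14 fibroblast markers 2 rose, Lum (1.28 ± 0.221) and Postn (0.48 ± 0.0817), and none fell; before adjustment 4 were higher and 4 lower, and their sum was 24069 to 26048 on control arrays and 26810 to 27371 in shARF. None of 2 tested macrophage markers and 4 tested endothelial markers passed limma's test. Before adjustment 1 macrophage marker was lower and 1 endothelial marker higher. The part of any cells of these types in the rises of Tnnt2 and Chrna1 was not tested.

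The genes whose pattern over the 6 arrays was most like that of Tnnt2, outside the lists, were Psme2, Abcb6, Fgd1, Slfn2 and Bmp5. Abcb6, Slfn2 and Bmp5 were called higher in shARF, while Psme2 and Fgd1 did not pass (limma, adjusted p = 0.0569 and 0.112). Likeness was Pearson's r of log2 signals over the 6 arrays, 0.998, 0.996, 0.994, 0.992 and 0.991, given as a description, since the step between the groups makes much of it. Slfn2 gave 21.6, 22.7 and 23.9 in shSCR and 58.2, 78.7 and 60.4 in shARF, with shARF replicate 2 the highest, as for Tnnt2. Bmp5, which encodes a bone morphogenetic protein, gave 13.11, 13.06 and 13.04 in shSCR and 16.2, 20.1 and 17.2 in shARF; its 3 shSCR values lay under the detection level, so it was tested only through its shARF arrays and its likeness rests on values near background.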

How the data were processed

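RNA of 6 fibroblast samples was read on Affymetrix arrays. The authors normalized the arrays with RMA in Affymetrix Expression Console, per the submitters' processing notes, and deposited linear intensity values for 26851 probesets; no version or build is given in the sources used here. Quantile normalization hides a change common to most genes, and folds of dim genes are compressed. Intensities were turned to log2 values here.

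Of the probesets, 21056 carried 1 gene symbol in the platform annotation, 1450 several and 4345 none; only the first were named. A probeset was tested if above the 25th percentile of its array on at least 3 of 6 arrays, which left 20310 probesets and 15145 genes, each gene by its probeset of highest mean. The test of shARF against shSCR was limma's moderated test (version 3.58.1, R 4.3.3, two-sided, 3.28 prior degrees of freedom), with Benjamini-Hochberg adjustment over all tested probesets and a threshold of 0.05. The 3 arrays per group limit the precision. SAM (significance analysis of microarrays), which the series design text names, was run as an alternative, with symmetric limits over all splits of the arrays. Both were checked on simulated arrays.

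The members and lists were chosen with earlier results of these data known. Named genes were the 10 members, 7 fixed regulators, from each other striated muscle list the called genes (at most 4 of smallest p), 4 smooth muscle markers of smallest p and 5 genes most like the called member of smallest p; other genes named were chosen after their values were seen.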

Additional observations from a re-analysis of the deposited data

How the results depend on the processing

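The differences of Tnnt2 and Chrna1 were positive in every alternative run. The count of 2 members called was 1 with no filter on dim probesets and 1 with both arrays numbered 2 left out (a setting chosen after seeing the data), and 0 to 1 on leaving out 1 array. With the filter at the array median 5 members were tested, and the 2 calls held. The 607 genes called became 372 with no filter, 996 with the stricter filter, 978 with an offset of 16 added to the signal, 1281 with a trended and robust variance, 997 with SAM, 137 without both arrays numbered 2 and 150 to 330 on leaving out 1 array. The 11 other genes of the striated muscle lists called, regulators among them, became 3 without both arrays numbered 2 and 2 to 7 on leaving out 1 array. With the replicate number as a block, 336 genes, 2 members and 7 other striated muscle genes were called. Deviations of same-numbered arrays from their group means correlated at 0.078, 0.052 and 0.001 over probesets, and not every array correlated best with its own number, so the numbers were not taken as pairs. Of the 10 members, 9 were detected on all arrays, and 4 at the receptor 99th percentile. Among genes not called, Des turned to -0.0005 and Myod1 to -0.0004 when quantile normalized again. Without both arrays numbered 2, Myod1 turned to -0.0297, Myog to 0.0474 and Tnni1 to 0.0723. On leaving out 1 array Actc1 ranged from -0.224 to 0.0169, Des from -0.101 to 0.104, Tnni1 from -0.138 to 0.0421, Myod1 from -0.0328 to 0.099 and Myog from -0.264 to 0.0547. The causes were not tested. Signals near background limit what can be said of Tnnt1, Tnni1, Des and Myl1, and of the regulators Myod1, Myog, Myocd and Pax7. Chrna1 is limited too, since it exceeded the receptor 99th percentile on 5 arrays and the array median on 3.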
